A study of Mus musculus with 4 samples.

Results

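Transcript counts of 9 genes of bone morphogenetic protein (BMP) signalling, out of 32285 genes listed in the files, were followed in single cells of the embryonic mouse cerebellum. They were picked by name: the BMP response genes Id1, Id2, Id3, Id4, Msx1 and Msx2, the secreted antagonists Fst and Grem1, and the ligand Bmp7. The cells were sorted for the red reporter tdTomato (tdT) from cerebella at stage E14.5 and read by droplet RNA sequencing of transcript 3′ ends. The 2 control libraries came from Atoh1-Cre/+; R26LSL-tdT/+ embryos and the 2 mutant libraries, En1/2 CKO (conditional knockout), from Atoh1-Cre/+ embryos with both En genes floxed (En1lox/lox and En2lox/lox) and the same R26LSL-tdT/+ reporter. Both genotypes thus carry 1 Atoh1-Cre allele and the reporter, and recombination was limited to cells in which Atoh1-Cre had been active and to their descendants. Several animals were pooled into each library, so a library is the unit of replication and the spread between animals was not measured. Nothing in the labels says that the libraries of a group came from separate litters, so the p-values measure only the spread between these libraries.

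BMPs are secreted ligands that bind paired type I and type II receptor kinases, which phosphorylate Smad proteins that enter the nucleus and switch on targets such as the Id and Msx genes. Id proteins bind E proteins, the common partners of neurogenic bHLH factors such as Atoh1, and so keep those factors from DNA. Msx1 and Msx2 are homeodomain repressors. Follistatin (Fst) traps activins and some BMPs outside the cell, and gremlin 1 (Grem1) traps BMPs. In the developing cerebellum, BMPs from the roof plate help to induce Atoh1 in the rhombic lip, which gives rise to granule cell precursors and to the excitatory neurons of the cerebellar nuclei.

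The members are protein-coding genes, given here by their GENCODE M21 positions on GRCm38. Chromosome 2 holds Id1 (ENSMUSG00000042745, 152736251 to 152737410, plus strand), Grem1 (ENSMUSG00000074934, 113746164 to 113758646, minus strand) and Bmp7 (ENSMUSG00000008999, 172868012 to 172940321, minus strand). Chromosome 13 holds Id4 (ENSMUSG00000021379, 48261228 to 48266026, plus strand), Msx2 (ENSMUSG00000021469, 53466884 to 53473074, minus strand) and Fst (ENSMUSG00000021765, 114452290 to 114458951, minus strand). Id2 (ENSMUSG00000020644) lies at 25093799 to 25097140 on chromosome 12, minus strand. Id3 (ENSMUSG00000007872) lies at 136143497 to 136145755 on chromosome 4, plus strand. Msx1 (ENSMUSG00000048450) lies at 37820485 to 37824583 on chromosome 5, minus strand.

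The 250 bases before the RefSeq transcription start (GRCm38.p6) are printed for 4 members. Of the 6 members with an entry in the RefSeq table, these are the ones called between Atoh1-positive and Meis2 > Pax6 cells: Id2 and Msx2 were higher in the former, Id4 and Grem1 in the latter. Capitals mark GGCGCC and GGAGCC (GC-rich elements of the kind Smads bind at BMP targets), CANNTG (the E-box bound by bHLH factors) and TAATTA (a homeodomain core site), on either strand. The windows are chr12:25096093-25096342, minus strand, for Id2, chr13:53472781-53473030, minus strand, for Msx2, chr13:48260866-48261115, plus strand, for Id4, and chr2:113758649-113758898, minus strand, for Grem1.
Id2: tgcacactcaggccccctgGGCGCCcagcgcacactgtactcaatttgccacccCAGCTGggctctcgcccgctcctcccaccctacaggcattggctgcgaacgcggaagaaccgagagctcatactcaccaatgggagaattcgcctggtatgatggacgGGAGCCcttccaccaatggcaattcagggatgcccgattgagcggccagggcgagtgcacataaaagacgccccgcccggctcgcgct
Msx2: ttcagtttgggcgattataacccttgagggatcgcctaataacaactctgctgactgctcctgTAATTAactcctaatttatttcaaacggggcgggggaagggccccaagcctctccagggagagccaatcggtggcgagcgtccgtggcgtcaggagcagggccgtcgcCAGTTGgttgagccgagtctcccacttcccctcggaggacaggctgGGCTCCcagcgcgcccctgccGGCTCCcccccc
Id4: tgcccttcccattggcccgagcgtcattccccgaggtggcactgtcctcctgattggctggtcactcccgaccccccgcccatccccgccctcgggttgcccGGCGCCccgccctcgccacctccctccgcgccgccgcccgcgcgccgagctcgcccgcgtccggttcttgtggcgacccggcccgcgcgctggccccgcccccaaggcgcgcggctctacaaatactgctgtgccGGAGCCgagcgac
Grem1: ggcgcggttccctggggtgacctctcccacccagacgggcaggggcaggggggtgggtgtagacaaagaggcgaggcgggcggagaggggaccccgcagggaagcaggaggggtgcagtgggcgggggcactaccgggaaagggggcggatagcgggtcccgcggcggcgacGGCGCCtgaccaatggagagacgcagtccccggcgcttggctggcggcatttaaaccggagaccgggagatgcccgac
GGCGCC occurred once each in the windows of Id2, Id4 and Grem1 and not in that of Msx2, and 9.59% of the 32851 mouse windows of the same length hold it. GGAGCC occurred once in Id2, once in Id4 and 2 times in Msx2, against 26.0% of all windows with a match. Id2 and Msx2 each had 1 CANNTG, which 66.2% of all windows hold, and Msx2 alone of the 4 had a TAATTA, which 4.84% hold. The windows are rich in G and C, at 62.8%, 61.6%, 75.6% and 72.0% for Id2, Msx2, Id4 and Grem1, against a median of 52.4% over all windows. These matches describe the letters only. The GC-rich elements did not sort the genes by cell class, since Id2 and Id4 shared both and differed in opposite directions. CANNTG occurred only in the windows of the genes higher in Atoh1-positive cells, but most mouse windows hold it, and a link to class was not tested.

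Counts are of unique molecular identifiers (UMIs), 1 per captured transcript. Total UMIs were 21351661 (control 1), 14998150 (control 2), 27138010 (CKO 1) and 33709450 (CKO 2). A barcode was kept as a cell from 500 genes and 1000 UMIs upward, provided that mitochondrial genes gave no more than 10% of its UMIs, which left 2911 and 3931 control cells and 2007 and 3697 CKO cells. Control cells had a median depth of 2734 and 2122 UMIs and CKO cells of 5352 and 5544, and 18 barcodes occurred in more than 1 library. En2 stood at 136 and 167 CPM (UMIs of a gene as a rate, scaled to the library total) in the controls and at 29.0 and 19.8 CPM in the CKO libraries. En1 stood at 238 and 382 against 150 and 253 CPM. These are values of all kept cells. In Meis2 > Pax6 cells, defined below, En1 stood at 562 and 462 against 347 and 743 CPM, so CKO 2 lay above both controls. En2 stood there at 257 and 188 against 46.8 and 43.8 CPM. The labels do not say which exons the lox sites flank, so 3′ counts check the deletion only in part.

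Cells were put in 3 classes by marker counts: Atoh1-positive (at least 1 UMI of Atoh1, the bHLH factor of rhombic lip and granule precursors), Neurod1-positive (at least 1 UMI of Neurod1, a bHLH factor of differentiating granule cells) and Meis2 > Pax6 (more UMIs of Meis2 than of Pax6, a rule that favours nuclei neurons over the granule lineage). The Atoh1-positive class held 755 and 397 control cells (25.9% and 10.1% of kept cells) and 922 and 1616 CKO cells (45.9% and 43.7%). The Meis2 > Pax6 class held 603 and 2322 control cells (20.7% and 59.1%) and 573 and 372 CKO cells (28.6% and 10.1%). The Neurod1-positive class held 1520 and 1414 control cells and 1049 and 2016 CKO cells. The 95% Wilson intervals of these shares reach at most 2.18 points to either side and cover counting error only. Class membership depends on depth: the median Atoh1-positive cell held 5775 and 2716 UMIs in control libraries against 16380 and 12748 in CKO libraries.

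The classes were not pure by markers. All 9 of a list of granule lineage genes were detected in Atoh1-positive cells, with a summed level of 2965 to 3590 CPM, and the 9 nuclei neuron markers summed to 721 to 2062 CPM there. In Meis2 > Pax6 cells the nuclei list summed to 3001 and 3765 CPM in the controls and to 3503 and 3309 CPM in the CKO libraries. The granule list still summed to 2244 and 2048 against 3014 and 3347 CPM there. It was thus higher in both CKO libraries, and above the nuclei list in CKO 2. The granule list includes Atoh1, Neurod1 and Pax6 and the nuclei list Meis2, so part of each sum follows from the class rules. Markers of other cells also differed between libraries. The 7 erythroid genes summed to 1873 and 1555 CPM in control Atoh1-positive cells against 12.6 and 2.12 CPM in CKO ones, and the 5 microglial genes to 246 CPM in control 2 and at most 0.54 CPM elsewhere. Both the endothelial list (2.12 to 2.77 CPM, with Cdh5 and Cldn5 at 0) and the mesenchymal list (1.45 to 3.90 CPM, with Lum at 0) were near 0 in that class, and the 8 radial glial genes summed to 222 to 355 CPM.

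The 9 genes did not share one pattern. Among the 3 classes, mean levels of Fst, Msx2, Id1 and Id2 were highest in Atoh1-positive cells, whereas those of Id4 and Grem1 were highest in Meis2 > Pax6 cells. The order does not extend to cells that met none of the 3 rules: there Fst stood at 194 and 252 CPM and Id1 at 35.2 and 29.1 CPM in CKO replicates 1 and 2 (no TMM scaling), against 193 and 190 CPM and 26.6 and 17.9 CPM in disjoint Atoh1-positive cells of the same libraries. To compare classes, cells were made disjoint: Atoh1-positive cells without Meis2 > Pax6, Neurod1-positive cells that met no other rule, and Meis2 > Pax6 cells without Atoh1. UMIs were summed per library and class and tested with edgeR's quasi-likelihood test with the library as block. A gene is called when its adjusted p, over all genes tested, is under 0.05. Of the 7 members tested, 6 were called between Atoh1-positive and Meis2 > Pax6 cells, 4 higher and 2 lower, against a background of 65.8% of all genes tested (32.7% higher, 33.2% lower). Between Atoh1-positive and Neurod1-positive cells 5 of 7 were called, 4 higher and 1 lower, against 48.5% (24% higher, 24.5% lower). With that background the number of calls says little about these genes as a set, and the sizes carry the description. Msx2 and Grem1 passed the filter on low counts only through the class in which they were high, so their calls add nothing to these counts. Msx1 and Bmp7 did not pass it.

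Fst, the activin and BMP trap, had the clearest class difference. In Atoh1-positive cells Fst stood at 214 and 303 CPM in control replicates 1 and 2 and at 210 and 203 CPM in CKO replicates 1 and 2. In Neurod1-positive cells without Atoh1 it stood at 57.9, 56.6, 36.6 and 60.5 CPM across those libraries, and in Meis2 > Pax6 cells at 32.5, 21.3, 30.8 and 28.3 CPM. No Atoh1-positive value came near those of either other class. The log2 difference to Meis2 > Pax6 cells was 3.11 ± 0.17 (SE, n = 4 libraries, adjusted p = 1.1e-11), and 2.74% of genes tested differed by as much in either direction. To Neurod1-positive cells it was 2.09 ± 0.14 (adjusted p = 1.5e-09), a size reached by 0.577% of genes.

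Msx2, the homeodomain repressor, was sparse and also highest in Atoh1-positive cells. It stood at 3.77, 5.20, 9.80 and 5.09 CPM in Atoh1-positive cells of control 1, control 2, CKO 1 and CKO 2. In the Neurod1-positive class it stood at 1.25, 0.51, 1.66 and 1.44 CPM, and in Meis2 > Pax6 cells at 0, 0.56, 2.42 and 1.01 CPM, so these other classes took turns as the lower one. These Atoh1-positive values rest on 27, 5, 118 and 102 UMIs. The ranges did not overlap with either class. Msx2 was higher by 2.57 ± 0.48 on the log2 scale against Meis2 > Pax6 cells (adjusted p = 9.3e-05) and by 2.07 ± 0.33 against Neurod1-positive cells (adjusted p = 4.0e-05). In the latter comparison 0.635% of genes differed as much as Msx2. Since Msx2 passed the filter on low counts only through Atoh1-positive cells, its tests and this rank support nothing beyond the levels given.

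Id1 and Id2, the inhibitors of bHLH dimers, declined from Atoh1-positive to Neurod1-positive to Meis2 > Pax6 cells. Id1 stood at 25.3, 16.7, 28.8 and 19.1 CPM in Atoh1-positive cells of the 4 libraries, in the order above. In Neurod1-positive cells it stood at 17.1, 13.8, 13.98 and 12.6 CPM and in Meis2 > Pax6 cells at 6.14, 6.18, 9.67 and 6.07 CPM. Id1 was higher in Atoh1-positive cells in 4 of 4 libraries in both comparisons, although its ranges in the Atoh1-positive and Neurod1-positive classes touched across libraries. The log2 differences were 1.70 ± 0.20 to Meis2 > Pax6 cells (adjusted p = 2.7e-07) and 0.67 ± 0.14 to Neurod1-positive cells (adjusted p = 0.00054).

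Id2 stood at 212, 120, 233 and 211 CPM in Atoh1-positive cells, with control 2 the low library. It stood at 143, 71.4, 103 and 177 CPM in Neurod1-positive cells and at 81.0, 71.1, 39.3 and 73.8 CPM in Meis2 > Pax6 cells. Within each library the Atoh1-positive value was the highest of the 3, and in control 2 the other classes were level. The log2 differences were 1.48 ± 0.19 (adjusted p = 1.5e-06) and 0.69 ± 0.17 (adjusted p = 0.0026).

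Id4, an Id protein with its own expression pattern in neural tissue, ran the other way. It stood at 3.49, 21.9, 7.15 and 4.09 CPM in Atoh1-positive cells, at 14.05, 28.6, 13.6 and 5.76 CPM in Neurod1-positive cells, and at 40.5, 89.8, 106 and 50.6 CPM in Meis2 > Pax6 cells. Every Meis2 > Pax6 value was above every value of the other classes. Id4 was lower in Atoh1-positive than in Meis2 > Pax6 cells by a log2 difference of -3.37 ± 0.25 (adjusted p = 4.8e-10), a size that 1.74% of genes reached. It was also lower than in Neurod1-positive cells, by -1.13 ± 0.28 (adjusted p = 0.0022).

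Grem1, the BMP trap of the DAN family, was highest in Meis2 > Pax6 cells among these classes. It stood there at 14.7, 10.9, 9.07 and 3.03 CPM, from 24, 58, 15 and 3 UMIs, with CKO 2 the low library. In Atoh1-positive cells it stood at 0.84, 0, 0.17 and 0.75 CPM and in Neurod1-positive cells at 0.16 to 2.55 CPM. The log2 difference between Atoh1-positive and Meis2 > Pax6 cells was -3.73 ± 0.50 (adjusted p = 1.9e-06), and 0.965% of genes differed as much. Since Grem1 passed the filter on low counts only through Meis2 > Pax6 cells, this test and rank support nothing beyond the levels given. Against Neurod1-positive cells Grem1 was not called (-0.40 ± 0.65, adjusted p = 0.64).

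Id3, the third of the Id inhibitors, was not called in either comparison, at 0.33 ± 0.54 (adjusted p = 0.60) and 0.78 ± 0.47 (adjusted p = 0.18). Its values in Atoh1-positive cells ran from 1.55 CPM in CKO 2 to 9.47 CPM in CKO 1. Without CKO 2, Id3 was called higher in Atoh1-positive than in Neurod1-positive cells (1.82, adjusted p = 0.0066). Msx1 stood at 0 to 2.24 CPM in all 3 classes. Bmp7, the one BMP ligand followed as a member, gave 3, 2, 3 and 14 UMIs in all kept cells of the 4 libraries and was too sparse for any test.

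**Figure D1:**
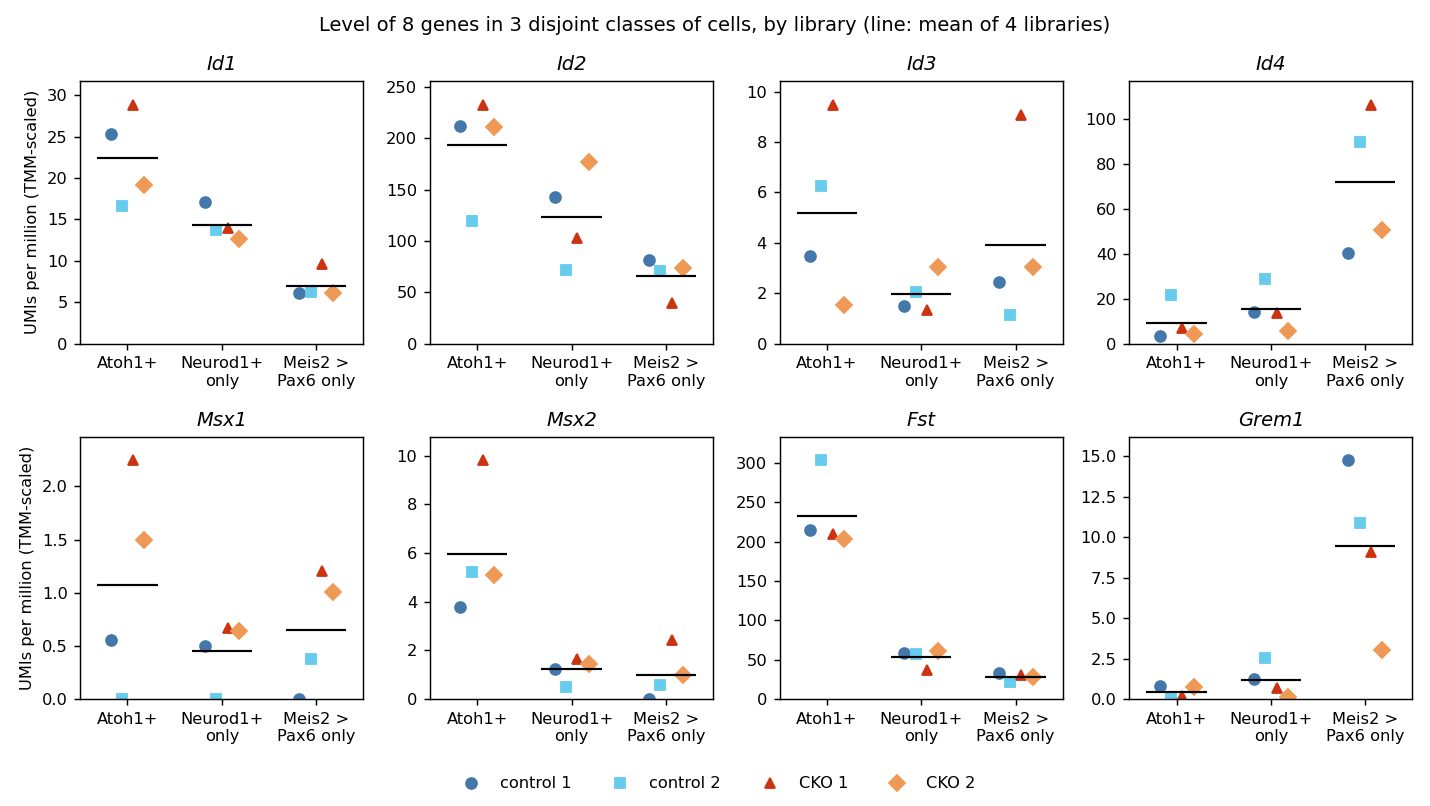
TMM-scaled CPM (vertical axes, from 0, each gene on its own scale) of 8 genes in 3 disjoint classes of cells, with 1 point per library and a line at the mean of the 4 libraries. Fst, Msx2, Id1 and Id2 are highest in Atoh1-positive cells, Id4 and Grem1 in Meis2 > Pax6 cells, and Id3 is set apart by CKO 1, at 9.47 and 9.07 CPM.

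Depth differs between classes, so each cell was also thinned to 2000 UMIs. Fst, Id1, Id2 and Id4 kept their calls and directions between Atoh1-positive and Meis2 > Pax6 cells, at log2 differences of 2.85, 1.12, 1.05 and -3.08. Against Neurod1-positive cells Fst (2.10) and Id2 (0.54) kept theirs. Id1 (0.40, adjusted p = 0.44) and Id4 (-0.96, adjusted p = 0.12) no longer passed. Msx2, Grem1 and Id3 were too sparse to be tested after thinning, so their class differences were not checked at equal depth. In the 2 control libraries alone, Id1 against Neurod1-positive cells also missed the threshold (0.51, adjusted p = 0.14).

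Among Atoh1-positive cells, some members were higher in dividing cells at full depth. None was called after thinning to 2000 UMIs, where only Id2 and Fst could be tested. Cells were taken as cycling from 2 UMIs upward, summed over the proliferation genes Birc5, Cdk1, Cenpf, Mki67, Top2a and Ube2c, and compared with the other Atoh1-positive cells of the same library. Of the 6 members tested, 5 were called higher and none lower, against 18.1% of all genes called higher, 17.9% lower and 35.9% in either direction. Msx2 passed the filter on low counts through the cycling cells, so its call adds nothing to that count. Msx1, Grem1 and Bmp7 did not pass it. Msx1 was higher in cycling cells in 4 of 4 libraries, Grem1 and Bmp7 in 1 of 4 each. Cycling cells were deeper by nature of the rule, with a median of 13260 UMIs against 3998.5 in control 1, and how far depth moves these values was tested only by thinning.

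Msx2 rose most. It stood at 4.52, 7.08, 10.6 and 6.18 CPM in cycling cells of control 1, control 2, CKO 1 and CKO 2, and at 1.85, 0, 3.03 and 2.17 CPM in the others, where it had 5, 0, 13 and 16 UMIs. The ranges did not overlap, and the log2 difference was 1.68 ± 0.28 (adjusted p = 0.00029). Since Msx2 passed the filter on low counts only through the cycling cells, this test supports nothing beyond the levels given. Id1 stood at 30.9, 24.1, 29.1 and 21.3 CPM in cycling cells and at 11.5, 13.6, 11.2 and 12.5 CPM in the others. Id1 was also clear of overlap, at 1.11 ± 0.15 (adjusted p = 2.9e-05).

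Id2 and Fst rose by less. Id2 stood at 214, 123, 230 and 212 CPM in cycling cells and at 178, 66.9, 138 and 191 CPM in the others, higher in 4 of 4 libraries (0.43 ± 0.11, adjusted p = 0.0055). Fst stood at 223, 318, 190 and 203 CPM in cycling cells and at 163, 133, 165 and 179 CPM in the others (0.43 ± 0.12, adjusted p = 0.014). In control 2 the Fst difference was widest. Id4 did not differ beyond its error (-0.25 ± 0.21, adjusted p = 0.37), with control 2 the high library at 17.0 and 39.7 CPM. With doublets removed Id4 was called lower in cycling cells (-0.64, adjusted p = 0.029).

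Id3 stood at 3.15, 8.49, 10.1 and 1.87 CPM in cycling cells and at 4.45, 1.05, 1.16 and 0.82 CPM in the others. It was higher in 3 of 4 libraries and called (1.52 ± 0.46, adjusted p = 0.018), but the call was lost with DESeq2 (1.51, adjusted p = 0.068), without CKO 1 (0.60, adjusted p = 0.42) and without cells rich in glial and vascular RNA (0.90, adjusted p = 0.085). After thinning to 2000 UMIs only Id2 and Fst had the counts to be tested, and neither passed (0.15 and 0.29, adjusted p = 0.63 and 0.17). Without CKO 1 the members called fell from 5 to 3, Id2 being the other one lost (adjusted p = 0.094), and without control 1 Fst was lost (adjusted p = 0.084). Fst was also lost with a class rule of 2 UMIs (0.20, adjusted p = 0.095).

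**Figure D2:**
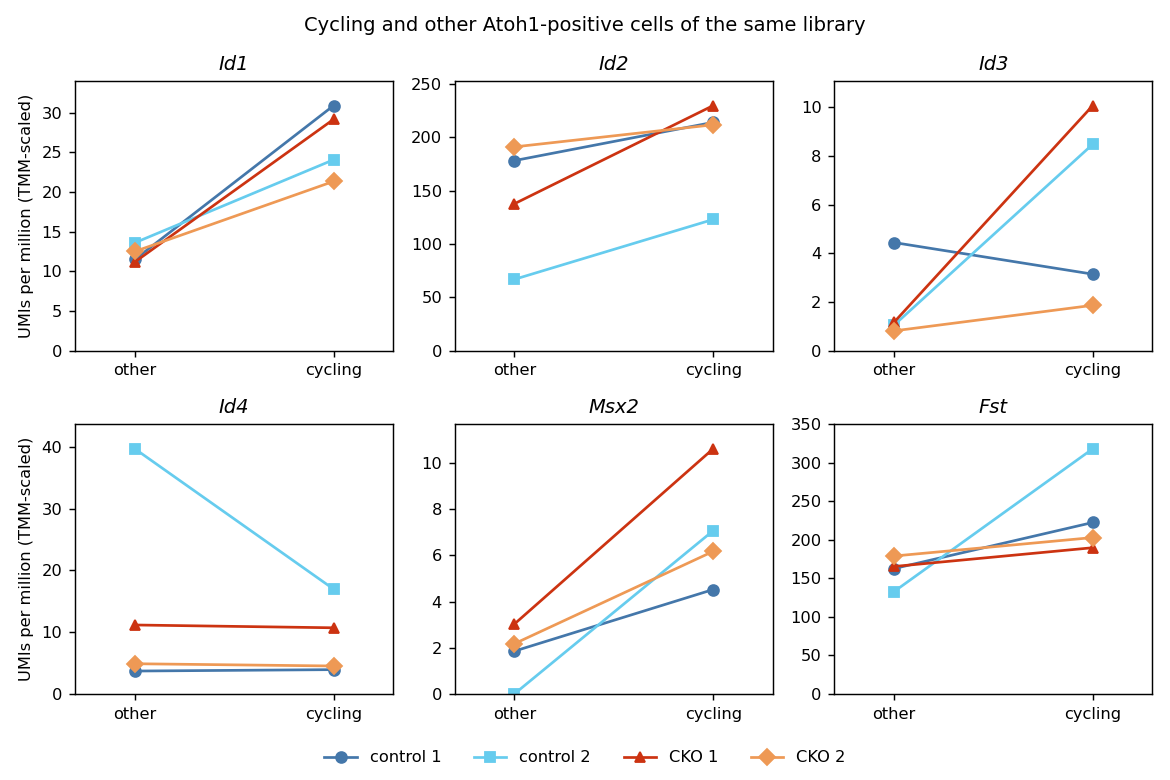
TMM-scaled CPM (vertical axes, from 0) of 6 genes in cycling and other Atoh1-positive cells, with a line joining the values of 1 library. Id1, Id2, Msx2 and Fst rise from other to cycling cells in 4 of 4 libraries, Id3 in 3 of 4 and Id4 in 1 of 4.

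Whether loss of En1 and En2 changed these genes was asked in all kept cells and in each class, with 2 control against 2 CKO libraries and no block. No member was called in any of the 4 fits. In all kept cells 8 members were tested and 0 of 14710 genes were called (0%). There 1648 genes (11.2%), 3 members among them, had an unadjusted p under 0.05 in edgeR. DESeq2 called 153 genes and no member. In Atoh1-positive cells 0 of 8 members were called, against 0.0222% of 13543 genes. No member had an unadjusted p under 0.05 there, against 4.16% of all genes. In Neurod1-positive cells 0 of 8 were called against 0.0287% of 13926 genes, and 3 members had an unadjusted p under 0.05, against 8.71% of all genes. Msx1, among the 3 here and in all kept cells, passed the filter on low counts only through the CKO libraries. Its p therefore adds nothing to either count. In Meis2 > Pax6 cells 0 of 6 were called against 0.212% of 11804 genes (0.136% higher, 0.0762% lower). Of these 6, 2 had an unadjusted p under 0.05, against 14.67% of all genes. DESeq2 called no member in these classes either. Missing the threshold in this design does not show that the genes were alike in both genotypes, so sizes and errors follow.

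In Atoh1-positive cells the fold changes of Fst and Id1 were smaller than their errors. Fst stood at 200 and 208 CPM in the controls and at 183 and 194 CPM in the CKO libraries, a log2 fold change of -0.11 ± 0.22 (adjusted p = 0.98). Id1 stood at 23.9 and 17.7 against 24.1 and 18.2 CPM (-0.02 ± 0.27, adjusted p = 1.00). Id2 stood at 200 and 89.1 against 204 and 204 CPM (0.48 ± 0.35, adjusted p = 0.97), so only control 2 lay apart. The share of Atoh1-positive cells with an Fst UMI, after thinning to 2000 UMIs, was 24.0% ± 3.06 in the controls and 24.8% ± 1.13 in the CKO (SD, n = 2, exact permutation p = 1.00). Without thinning it was 35.2% ± 12.7 against 54.2% ± 1.12, which follows the depth of the libraries. With 2 against 2 libraries this exact permutation test cannot pass the threshold, since its smallest two-sided p is 1 in 3. Haemoglobin-rich cells, which should lack Fst, numbered only 4, 11, 3 and 0 in the 4 libraries, too few for a background share.

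In all kept cells the members split in the directions of their class patterns. Fst stood at 130 and 68.9 CPM in the controls and at 155 and 165 CPM in the CKO libraries (0.69 ± 0.32, adjusted p = 0.44). Id4 stood at 11.8 and 60.4 against 21.8 and 7.23 CPM (-1.32 ± 0.76, adjusted p = 0.48). The Fst values ran in nearly the same order as the share of Atoh1-positive cells (10.1% in control 2, 25.9% in control 1, 43.7% and 45.9% in the CKO libraries), and the Id4 values in the same order as the share of Meis2 > Pax6 cells (10.1%, 20.7%, 28.6% and 59.1% in CKO 2, control 1, CKO 1 and control 2). The part of class shares in these differences was not tested. Without control 2 the Id4 log2 fold change was 0.29, in the opposite direction.

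In all kept cells Msx1 and Msx2 were higher, and Grem1 lower, in each CKO library than in each control. Id2 and Fst were also higher in each CKO library there. How many of all genes were without overlap was not counted, so this describes the values only. Msx2 stood at 2.41 and 0.92 CPM in the controls and at 6.97 and 3.83 CPM in the CKO libraries in all kept cells (1.66 ± 0.55, adjusted p = 0.44). Msx1 stood at 0.38 and 0.37 against 1.58 and 1.33 CPM (1.94 ± 0.52, adjusted p = 0.43), from 6 and 4 against 32 and 41 UMIs. Grem1 stood at 2.53 and 6.96 against 1.58 and 0.75 CPM (-2.03 ± 0.62, adjusted p = 0.44). Msx1, Msx2 and Grem1 are the 3 members with an unadjusted p under 0.05 in all kept cells and in Neurod1-positive cells. Of all genes, 11.2% and 8.71% had such a p in these 2 edgeR fits. In both fits Msx1 passed the filter on low counts only through the CKO libraries. In Neurod1-positive cells it had 3 and 2 control UMIs against 14 and 32 in the CKO libraries. The p-values of Msx1 thus add nothing to the count of 3 and support nothing beyond the levels given. In Atoh1-positive cells Msx2 stood at 3.57 and 2.95 against 8.48 and 4.78 CPM (0.97 ± 0.44, adjusted p = 0.97). The share of Atoh1-positive cells with an Msx2 UMI did not keep that direction: it was higher in the CKO by 0.597 points at 2000 UMIs per cell, and the difference was -0.218 points at 3000 UMIs.

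**Figure D3:**
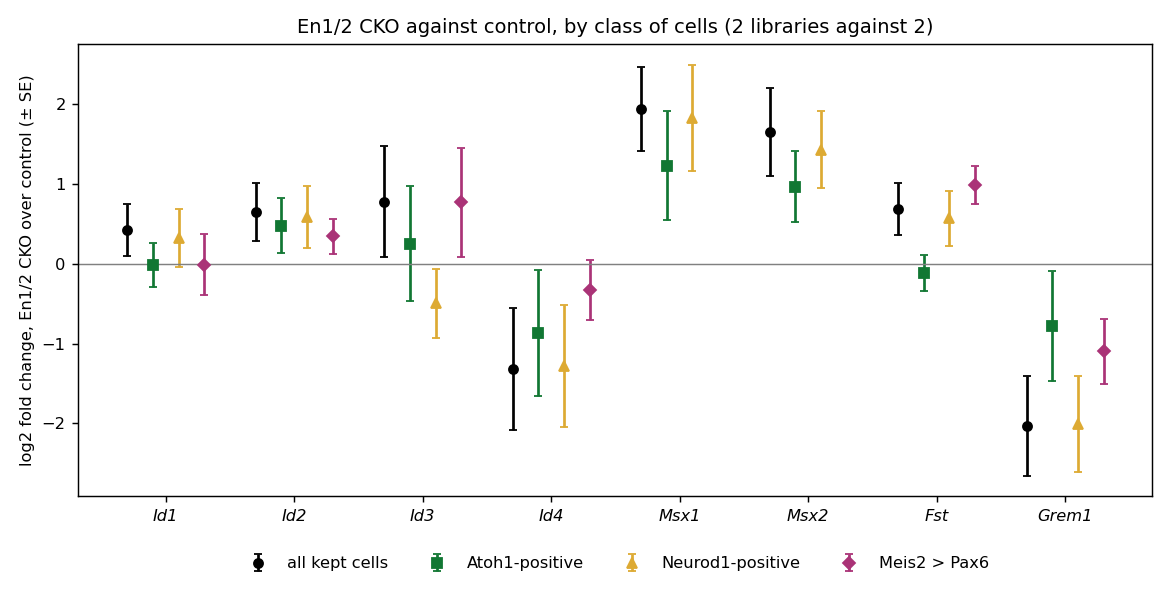
Log2 fold change of En1/2 CKO over control with its SE (vertical axis) for 8 genes in all kept cells and in 3 classes, where tested. Fst lies at -0.11 in Atoh1-positive cells and at 0.99 in Meis2 > Pax6 cells, Msx1 and Msx2 lie above 0 and Grem1 and Id4 below 0 in each class shown, and no value passed the adjusted threshold.

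One library changed the sizes. In all kept cells the log2 fold changes of Id2, Msx2, Fst, Id4 and Grem1 are given in that order. Without control 1 they were 1.35, 2.57, 1.255, -2.04 and -2.57. Without control 2 they were 0.21, 1.16, 0.31, 0.29 and -1.14. In Neurod1-positive cells Id2, Fst, Id4 and Grem1 stood at 1.35, 1.21, -2.07 and -2.58 without control 1. Without control 2 those values were 0.11, 0.15, 0.41 and -1.24. Fst in Meis2 > Pax6 cells stood at 1.27 without control 1, 0.70 without control 2 and 1.125 without CKO 2. With control 1 left out, the remaining control 2 is the library with 59.1% Meis2 > Pax6 cells. Each of these fits has 1 library in a group, assumed to vary like the other group, so its calls are not given.

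The member nearest to the threshold was Fst in Meis2 > Pax6 cells. It stood at 43.7 and 29.8 CPM in the controls and at 76.9 and 64.5 CPM in the CKO libraries. The log2 fold change was 0.99 ± 0.24 (edgeR's unadjusted p = 0.0020, adjusted p = 0.13). Only 5.92% of genes moved as far. That class includes cells that are also Atoh1-positive: 14.4% and 8.4% of its cells in the controls against 31.9% and 20.4% in the CKO libraries, with 95% Wilson intervals of at most 4.09 points to either side. Those cells held 22.1% and 11.1% of the class's UMIs in the controls against 63.3% and 47.2% in the CKO libraries.

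Split this way, the Fst difference was smaller. In cells that met both rules Fst stood at 85.1 and 91.2 CPM in the controls and at 98.7 and 104 in the CKO libraries, here without TMM scaling. In Meis2 > Pax6 cells without Atoh1 it stood at 34.6 and 21.2 against 31.4 and 29.8. In these latter cells the log2 fold change was 0.20 ± 0.29 (adjusted p = 1.00). Id2 changed sign with the same split, from 0.34 ± 0.22 in the whole class to -0.45 ± 0.29, and Id4 from -0.33 to 0.25, while Grem1 was -1.10 ± 0.41 (adjusted p = 0.26) and -0.90 ± 0.50.

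**Figure D4:**
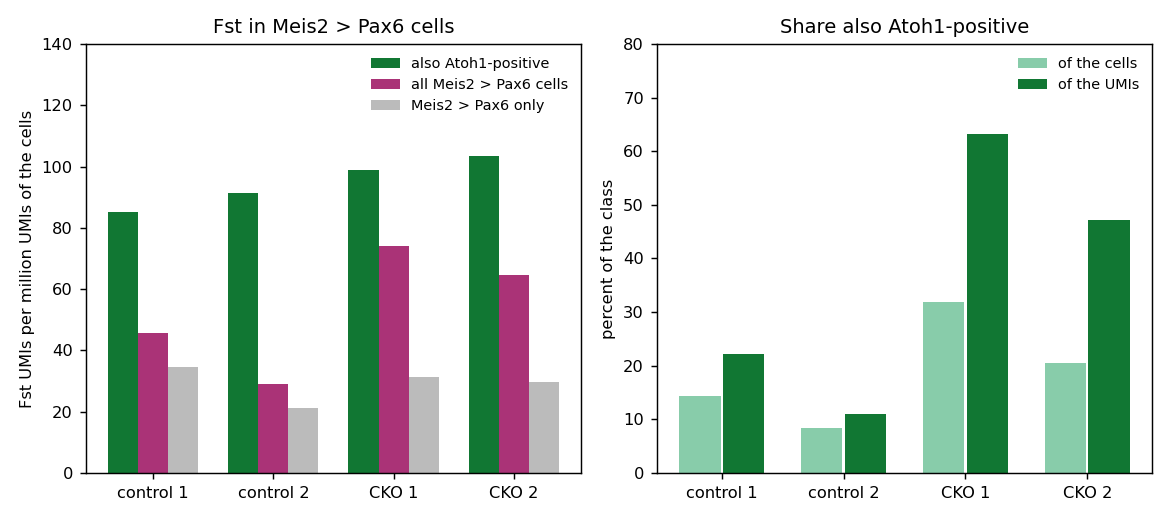
Left, Fst CPM (bars from 0) by library in Meis2 > Pax6 cells, all of them and split by whether they also hold Atoh1; right, the percent of the class's cells and UMIs that are also Atoh1-positive. Fst in the whole class is higher in the CKO libraries, at 74.0 and 64.6 against 45.8 and 29.0, while the split classes differ less, and the share also Atoh1-positive is higher in both CKO libraries.

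Whether the CKO effect differed between disjoint Atoh1-positive and Meis2 > Pax6 cells was tested by an interaction term. Of the 7 members tested 0 were called, against 0.134% of 12654 genes (0.0316% higher, 0.103% lower). Of these 7, 2 had an unadjusted p under 0.05 in edgeR, against 5.61% of all genes. The test missed most changes put into simulated counts, so its low count of calls says little. Id2 had the smallest p, with a CKO effect larger in Atoh1-positive cells by 0.97 ± 0.28 (unadjusted p by edgeR = 0.00095, adjusted p = 0.20). For Id4 the difference was -0.94 ± 0.37 (adjusted p = 0.61). Without control 1, which leaves 1 control library, Id2 stood at 1.35 and Id4 at -1.70. With all libraries Fst stood at -0.53 ± 0.30.

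Id3 counts came from few cells. Of its 417 UMIs in the 4 libraries, 253 (60.7%) lay in 17 cells with at least 3 Id3 UMIs each, and 8 cells of CKO 1 held 178 of the 224 Id3 UMIs of that library, 1 of them with 47. Of those 17 cells, 16 were among the 131 kept cells with at least 0.2% of their UMIs in radial glial, endothelial or mesenchymal and mural markers, and the 131 cells held 65.7% of all Id3 UMIs. In the 17 cells Fabp7, a fatty acid binding protein of radial glia, stood at 5499 CPM against 96.9 CPM in the other cells. Hes5 and Hes1, Notch targets of radial glia, stood at 537 against 3.13 CPM and at 376 against 3.88 CPM. Cldn5, a tight junction gene of endothelium, had 55 UMIs in 1 of the 17 cells.

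Other members were partly in the same cells. Id1 stood at 400 CPM in the 17 cells against 16.9 CPM in the rest and Msx1 at 107 against 0.78 CPM, while Id2 was level at 161 and 161 CPM and Fst lower at 53.7 against 140 CPM. Of the 1414 Id1 UMIs, 6.72% lay in the 131 glial or vascular marker cells. For Msx1, 3 cells of CKO 1 held 19 of that library's 32 UMIs. Among the Atoh1-positive cells of CKO 1, 3 glial or vascular marker cells held 83 of 116 Id3 UMIs.

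The estimated CKO effect on Id3 changed sign without those cells, and also without the whole CKO 1 library. In Atoh1-positive cells it was 0.25 ± 0.72 with all cells, -0.91 without the glial and vascular marker cells and -1.33 without CKO 1. In all kept cells it was 0.78 ± 0.70, and -0.40 and -0.58 in the same alternatives. None of these values was called.

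**Figure D5:**
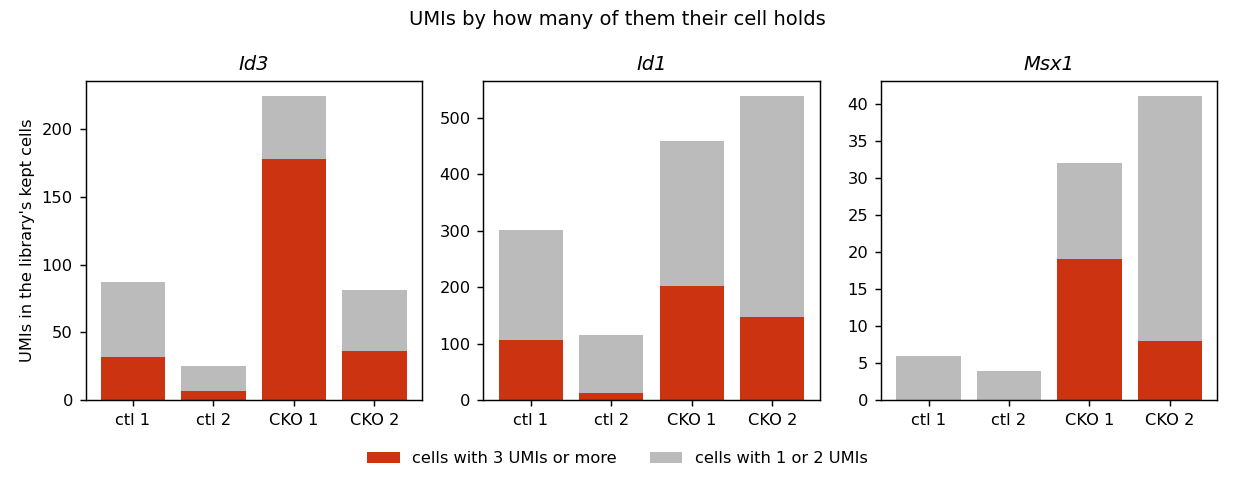
UMIs of Id3, Id1 and Msx1 in the kept cells of each library (stacked bars from 0, raw counts, not scaled for depth), split into cells that hold at least 3 UMIs of the gene and cells with 1 or 2. In CKO 1, cells with 3 or more hold 178 of 224 Id3 UMIs, 202 of 458 Id1 UMIs and 19 of 32 Msx1 UMIs.

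The rest of the BMP pathway was read from a list of 54 further genes by role. No listed gene was called between CKO and control in all kept cells (39 tested), Atoh1-positive (35), Neurod1-positive (37) or Meis2 > Pax6 cells (32), with medians of -0.09, -0.08, -0.15 and -0.03 on the log2 scale. Medians over all genes were -0.01, -0.02, 0.01 and -0.01. The most abundant gene of each role is given in Atoh1-positive cells. Smad4, the common Smad, stood at 117 and 92.0 against 140 and 142 CPM in Atoh1-positive cells (0.43 ± 0.23, adjusted p = 0.97). Smad7, an inhibitory feedback Smad, stood at 167 and 189 against 169 and 156 CPM there (-0.13 ± 0.22).

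None of the other roles had a called gene there either. Neo1, the receptor of RGM co-receptors, had a log2 fold change of -0.09 ± 0.26. Gdf11, a ligand of the activin-type branch, stood at -0.50 ± 0.22 (33.7 and 37.2 against 25.6 and 24.2 CPM, adjusted p = 0.97). Fstl1, a follistatin-like modulator, stood at 0.28 ± 0.25, and Tcf4, an E protein bound by Ids, at -0.01 ± 0.31.

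Between classes the pathway genes differed about as often as other genes. Of 33 tested, 23 were called between Atoh1-positive and Meis2 > Pax6 cells (69.7%, against 65.8% of all genes), 8 higher and 15 lower. Against Neurod1-positive cells 18 of 33 were called (54.5%, against 48.5%), 5 higher and 13 lower. Cycling against other Atoh1-positive cells gave 13 of 32 (40.6%, against 35.9%), 7 higher and 6 lower.

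Of 9 extracellular antagonists and modulators tested, 3 were higher and 5 lower in Atoh1-positive than in Meis2 > Pax6 cells, against 32.7% of all genes higher and 33.2% lower. Chrdl1, a chordin-like BMP trap, stood at 3.21 ± 0.65 CPM (SD, n = 4 libraries) against 33.1 ± 4.24 CPM, a log2 difference of -3.40 ± 0.21 (SE), and Nog (noggin) at 1.09 ± 0.46 against 4.83 ± 1.51 CPM (-2.01 ± 0.38). Nbl1 (DAN) was higher in Atoh1-positive cells, at 38.6 ± 6.36 against 10.5 ± 1.76 CPM (1.77 ± 0.17), and so was Fstl1 (1.07 ± 0.16). Twsg1, a chordin partner, was higher by 0.27 ± 0.11, and Chrd (chordin, -1.21 ± 0.34) and Crim1 (-1.52 ± 0.12) were lower. Nog and Chrdl1 passed the filter on low counts through the Meis2 > Pax6 cells, so their tests support nothing beyond the levels given. The adjusted p of Nbl1, Fstl1 and Crim1 was at most 8.3e-06, that of Chrd 0.0039 and that of Twsg1 0.045.

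Receptors were mixed. Bmpr1a, a type I BMP receptor, stood at 69.9 ± 5.05 CPM in Atoh1-positive cells against 35.1 ± 6.86 CPM in Meis2 > Pax6 cells (1.01 ± 0.11), and Bmpr2, the type II receptor, at 73.7 ± 7.88 against 136 ± 16.9 CPM (-0.91 ± 0.09). Rgmb, a BMP co-receptor of the RGM family, had the largest receptor difference, at 45.6 ± 25.1 against 328 ± 64.7 CPM (-3.03 ± 0.19). Smad7 was higher in Atoh1-positive cells (186 ± 31.2 against 102 ± 6.69 CPM, 0.88 ± 0.10), as was the E protein gene Tcf3 (184 ± 18.6 against 79.1 ± 5.95 CPM, 1.22 ± 0.09). The adjusted p of each of these 5 was at most 4.0e-07. Of the other genes called, Neo1 (0.64 ± 0.10) and Smad4 (0.60 ± 0.10) were higher in Atoh1-positive cells. The receptors Acvr1 (-0.57 ± 0.19), Acvr2a (-0.89 ± 0.12) and Acvr2b (-0.51 ± 0.10), the ligand Gdf11 (-0.57 ± 0.14), the protease Bmp1 (-1.34 ± 0.15), the ubiquitin ligase Smurf1 (-1.07 ± 0.15), the Smad repressor Skil (-0.23 ± 0.10) and the E protein gene Tcf12 (-0.45 ± 0.10) were lower.

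Against Neurod1-positive cells the genes called higher in Atoh1-positive cells were Bmpr1a (0.62 ± 0.10), Tcf3 (0.57 ± 0.08), Fstl1 (0.56 ± 0.13), Nbl1 (0.41 ± 0.12) and Smad7 (0.34 ± 0.10). Lower were Rgmb (-1.38 ± 0.19), Chrd (-1.07 ± 0.28), Smurf1 (-0.80 ± 0.13), Neo1 (-0.72 ± 0.09), Crim1 (-0.68 ± 0.12), Tcf12 (-0.61 ± 0.09) and Bmp1 (-0.54 ± 0.14). Smaller decreases were those of Skil (-0.45 ± 0.09), Bmpr2 (-0.40 ± 0.09), Acvr2a (-0.39 ± 0.11), Tcf4 (-0.30 ± 0.09) and Smad1 (-0.25 ± 0.10). Neo1 thus stood between the other classes, above Meis2 > Pax6 and below Neurod1-positive cells.

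In cycling against other Atoh1-positive cells, the co-receptor Rgma (0.75 ± 0.20), the type I receptors Bmpr1b (0.58 ± 0.21) and Bmpr1a (0.37 ± 0.08), Fstl1 (0.43 ± 0.08), Tcf3 (0.37 ± 0.09), Twsg1 (0.30 ± 0.10) and Smad4 (0.25 ± 0.08) were called higher. Chrdl1 (-1.07 ± 0.24), Rgmb (-0.92 ± 0.11), Crim1 (-0.88 ± 0.12), Gdf11 (-0.44 ± 0.10) and Nbl1 (-0.37 ± 0.09) were called lower.

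For the 5 members with a mean of 10 CPM or more over 20 profiles (5 disjoint groups of cells in 4 libraries), the genes with the most similar log2(CPM + 1) were sought among 9280 genes. For Fst these were Rfx4 (Pearson r = 0.961), Fgfr2 (0.944) and Wwc1 (0.934). Rfx4 is a transcription factor of neural progenitors. For Id2 they were Limd1 (0.944), Bccip (0.921) and Ccnd1 (0.920), which encodes the G1 cyclin D1. For Id1 they were Cep112 (0.900), Luzp1 (0.896) and Tmem97 (0.884). For Id4 they were Apbb2 (0.961), Slc27a3 (0.957) and Mir124-2hg (0.957). Id3 owes much of its mean to 1 profile, CKO 1 cells that met no rule, at 101 CPM from 89 UMIs in 8 cells, so no genes like it are named. The profiles share libraries and depth, so the values describe likeness only.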

How the data were processed

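Single-cell libraries of tdT+ cells were made by the submitters with 10x Genomics 3′ v3.1 chemistry. Per the submitters' processing notes, Cell Ranger 5.0.0 and mm10 were used; the annotation is not given in the sources used here. The deposited values are raw counts of UMIs per gene and barcode, with no normalization by the authors. The members and all lists were chosen with earlier results of these data known.

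From the counts, cells were filtered (at least 500 genes and 1000 UMIs, at most 10% mitochondrial UMIs), classed by marker UMIs and summed per library and class. No doublets were removed in the reported values. Sums were tested with edgeR 4.0.16 in R 4.3.3 (TMM factors, filterByExpr, quasi-likelihood F test, two-sided, Benjamini-Hochberg over all genes tested, threshold 0.05), with the library as block between classes. The SE was derived as the size of the log2 fold change divided by the root of its F statistic. CPM are TMM-scaled. Fits were tested on simulated counts, in which the interaction test recovered few of the changes; the limit set on its sign errors was loosened after it had been exceeded. Shares of cells were compared by a two-sided exact permutation test (scipy 1.17.1). Named genes are the 9 members, pathway genes called in a comparison or, where none was, the most abundant of each role, and the 3 genes most like each member. One gene that this rule would name is not reported here, and none is named for Id3. Of the 9 members, 6 had an entry in the RefSeq promoter table. Alternatives were DESeq2 1.42.0 and its size factors, no low-count filter, other class rules, intact cells (at least 4000 UMIs, at most 5% mitochondrial), doublets removed (0.8% per 1000 cells, by similarity to simulated doublets), thinning, control libraries only, a replicate block, and leaving out each library. Added after seeing the data were leaving out glial and vascular marker cells and a block with crossed numbers. Depth per library is given with the results; shares and counts carry counting error only. Barcode and feature lists were used for names.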

Additional observations from a re-analysis of the deposited data

How the results depend on the processing

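Of 739 recomputed values of single genes and shares, 654 kept their direction and side of the threshold, and 148 of 218 counts of calls stayed within 1.5 times. Below, counts are of genes called, and fold changes are log2 of CKO over control unless a class comparison is named. The numbers of genes tested in the alternatives are not given. Counts of members called thus have no background share beside them and are not read as a result. The causes of the changes were not tested. With 2 libraries a group, depth limits Msx1, Msx2, Grem1 and Bmp7 most.

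With DESeq2 the CKO tests called 153 genes in all kept cells, 22 in Atoh1-positive, 96 in Neurod1-positive and 174 in Meis2 > Pax6 cells, cycling called 2871 and the interaction 1. Without the low-count filter these CKO counts were 768, 182, 495 and 559, with 3 members in all kept cells (Id4, Msx2, Grem1), 2 in Neurod1-positive (Id4, Grem1) and 1 in Meis2 > Pax6 cells (Fst), and the interaction called 28 genes and 1 member (Id2). There Id1 stood at 0.02 in Atoh1-positive cells and at 0.065 in the interaction.

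In cells thinned to 2000 UMIs, 4150 genes were called between Atoh1-positive and Meis2 > Pax6 cells, 1717 genes and 2 members between Atoh1-positive and Neurod1-positive cells, and 953 genes and 0 members in cycling. CKO counts were 0 in Atoh1-positive, 1 in Neurod1-positive and 10 in Meis2 > Pax6 cells, and 6 for the interaction. Fst in Atoh1-positive cells then stood at 0.428 and Id4 in Meis2 > Pax6 cells at 0.168.

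With a class rule of 2 UMIs, 72 genes were called in Meis2 > Pax6 and 2 in Neurod1-positive cells, 27 in the interaction, and 3 members in cycling. Values with another sign were Id3 -0.474 and Id4 0.957 in Atoh1-positive cells, Id1 0.151 in Meis2 > Pax6 cells, Id4 0.102 in cycling and 0.393 in the interaction. In disjoint classes 15 genes were called in Atoh1-positive and 7 in Meis2 > Pax6 cells. Signs turned for Id1 in Atoh1-positive (0.079), Neurod1-positive (-0.211) and Meis2 > Pax6 cells (0.405), for Fst in Neurod1-positive cells (-0.184), and for Id2 (-0.454) and Id4 (0.254) in Meis2 > Pax6 cells.

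In intact cells 4903 genes were called between Atoh1-positive and Meis2 > Pax6 cells, 0 and 42 in the CKO tests of Atoh1-positive and Meis2 > Pax6 cells, and 1 in the interaction. Id1 stood at -0.028 in all kept cells, and Id4 at 0.172 in Atoh1-positive cells, 0.165 in cycling and 0.053 in the interaction. With doublets removed 10 genes were called in Meis2 > Pax6 cells, and Id4 was called in cycling (-0.638). In control libraries alone 3401 genes were called between Atoh1-positive and Neurod1-positive cells, and 2121 genes and 3 members in cycling. Without glial and vascular cells Id3 stood at -0.40 in all kept and -0.912 in Atoh1-positive cells, and Id1 at 0.375 in the interaction. The CKO minus control difference in shares, in points, turned at 3000 UMIs for Fst (-1.01), Id1 (0.477), Msx2 (-0.218) and Bmp7 (-0.247) in Atoh1-positive cells and for Id1 (0.357) and Id4 (-2.101) in Meis2 > Pax6 cells. Unthinned it turned for Id1 in both (8.018 and 1.399) for Grem1 in Meis2 > Pax6 (0.087) and Atoh1-positive cells (0.022), for Bmp7 in Atoh1-positive cells (-0.095) and for Id4 in Neurod1-positive cells (0.579).

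Deviations of same-numbered libraries correlated at -0.337 over all kept cells and at -0.276, -0.247 and -0.234 in the 3 classes, which gives no sign that the numbers pair the libraries; the labels do not say how they were given. With the replicate block, 2 genes were called in Neurod1-positive and 58 in Meis2 > Pax6 cells, no member was called, and Id1 in Atoh1-positive cells stood at 0.023. Under the block with crossed numbers, added after seeing the data, calls were 885 genes with 4 members in all kept cells, 191 in Atoh1-positive, 253 in Neurod1-positive and 763 with 1 member in Meis2 > Pax6 cells. Id3 in Atoh1-positive cells stood at -0.326 there. Msx1, among those 4 members, passed the filter on low counts only through the CKO libraries.

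Leaving out 1 library at a time gave 0 to 1398 genes and 0 to 5 members in all kept cells, 6 to 121 genes in Atoh1-positive cells, 2 to 2295 genes and 0 to 4 members in Neurod1-positive cells, and 44 to 751 genes and 0 to 1 members in Meis2 > Pax6 cells. Most of the highest counts came without control 1, that of Meis2 > Pax6 cells without CKO 2. Cycling gave 2613 to 4569 genes and 3 to 5 members, and the interaction 10 to 147 genes and 0 to 2 members. Ranges that crossed 0 were, in all kept cells, -0.575 to 1.588 for Id3 and -2.301 to 0.289 for Id4. In Atoh1-positive cells they were -0.219 to 0.311 for Id1, -1.326 to 1.002 for Id3 and -1.889 to 1.012 for Id4. In Neurod1-positive cells they were -0.075 to 0.996 for Id1 and -2.169 to 0.406 for Id4, and in Meis2 > Pax6 cells -0.264 to 0.157 for Id1 and -0.785 to 0.531 for Id4. Between classes they were -0.085 to 0.717 for Id3 against Meis2 > Pax6 cells and -1.531 to 0.096 for Grem1 against Neurod1-positive cells. In the interaction they were -0.464 to 0.212 for Id1, -0.988 to 0.056 for Fst and -1.26 to 5.56 for Grem1.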

Other observations

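Kept cells that met none of the 3 class rules numbered 752 and 782 in control replicates 1 and 2 and 323 and 927 in CKO replicates 1 and 2, with median depths of 1886.5, 1715.5, 1954 and 1643 UMIs. Fst stood in them at 112 and 104 CPM in the controls and at 194 and 252 in the CKO libraries, without TMM scaling. These Fst values lie above those of Meis2 > Pax6 cells without Atoh1 (21.2 to 34.6) in every library. Against disjoint Atoh1-positive cells (212 and 306 in control, 193 and 190 in CKO libraries) they were lower in both controls, level in CKO 1 and higher in CKO 2. Neither comparison was tested. Id3 stood at 26.9 and 4.78 in the controls and at 101 and 12.3 in the CKO libraries in the same cells, and 89 UMIs in 8 cells gave the value of CKO 1. Id1 stood at 19.8, 15.5, 35.2 and 29.1 in the order above, and Grem1 at 1.65, 4.78, 0 and 0.45.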
